A study of Homo sapiens and Mus musculus with 13 samples.

Results

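The gene expression difference described here lies between a pair of MDA-MB-231 lines that received different guide RNAs against the same gene, KDM5C. MDA-MB-231 is a triple-negative human breast cancer cell line. The line KDM5C-KD1 carried KDM5C guide 1, the line KDM5C-KD2 carried KDM5C guide 2, and the Control line carried a guide against GFP, which has no target in human cells. All lines had received Cas9 and their guide by lentivirus and had been selected with puromycin, so that the Control line shared the virus, the nuclease and the drug. The unit is FPKM, a fragment number scaled to transcript length and library size. A gene was analysed when its FPKM averaged 1 or more across these 3 lines, which it could reach through 1 high line alone. Of 11730 such genes, 248 differed at least 3-fold between the KDM5C guide lines: 94 were higher and 154 were lower in KDM5C-KD2. Another 20 genes were listed at 0 in 1 of these lines and at 1 FPKM or more in the other, and no ratio is given for them.

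The study of 13 samples also held 4 other lines of the same cells, TRIM11-KD1 and TRIM11-KD2 with TRIM11 guides 1 and 2, and the double knockdown lines DKD1 and DKD2, in which TRIM11 guide 1 or 2 was combined with KDM5C guide 2. The remaining samples were mouse tumors and were not used. Where 3 levels of a gene are given without names, they stand in the order Control, KDM5C-KD1, KDM5C-KD2. Each line was 1 library, so that every value below is a single measurement with no replicate error and no test, and a difference between guide lines cannot be told apart from a difference between any 2 transduced populations. The table gave FPKM without read numbers, so that the depth of each library is unknown and no counting error can be given. Total FPKM ran from 493542 to 513461 over the 7 lines. The median log2 ratio of KDM5C-KD2 to KDM5C-KD1 over all genes analysed was 0.02 (on the log2(FPKM + 0.1) scale, as are all list medians below).

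KDM5C is an X-linked histone demethylase that removes methyl groups from lysine 4 of histone H3, a mark of active promoters and enhancers. It belongs to a family with KDM5A and KDM5B and is known both for repressing genes and for restraining enhancers. TRIM11, the other gene targeted in the study, is a ubiquitin ligase. Cas9 cuts DNA and the repaired gene may still be transcribed, so that a transcript level does not measure the protein that is left. The authors checked the knockdown by western blot, which was not analysed here.

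KDM5C itself was at the same transcript level in both guide lines. Its FPKM was 30.3 in Control, 20.6 in KDM5C-KD1 and 21.4 in KDM5C-KD2, which is 0.679 and 0.707 of Control. The DKD lines were at 18.8 and 22.7 and the TRIM11-KD lines at 29.8 and 28.4, so that all 4 lines with a KDM5C guide were below all 3 lines without one. TRIM11, which no guide targeted in the KDM5C-KD lines, was at 12.6 FPKM in Control, 13.6 in KDM5C-KD1 and 14.2 in KDM5C-KD2. None of 20 enzymes that write or erase methylation of lysine 4 of histone H3 differed 3-fold between the guide lines, and their log2 ratios lay between -0.61 and 0.54. The related demethylases stood at 3.86, 3.78 and 4.11 FPKM for KDM5A and at 12.1, 11.4 and 8.47 FPKM for KDM5B.

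The cells carried the markers of their label in all 3 lines. VIM, the intermediate filament vimentin, was at 1038 FPKM in Control, 1273 in KDM5C-KD1 and 1134 in KDM5C-KD2. ESR1 and PGR, the estrogen and progesterone receptors, were at 0 or below 0.012 FPKM in them. The summed level of 9 luminal or epithelial markers was 701, 835 and 961 FPKM, nearly all of it from the keratins KRT8 and KRT18. The summed level of 4 leukocyte markers was 1.68, 1.46 and 2.19 FPKM and that of 3 endothelial markers 0.812, 0.301 and 0.401 in Control, KDM5C-KD1 and KDM5C-KD2. In bulk RNA, fewer cells that express a gene and less RNA of it per cell cannot be told apart.

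**Figure D1:**
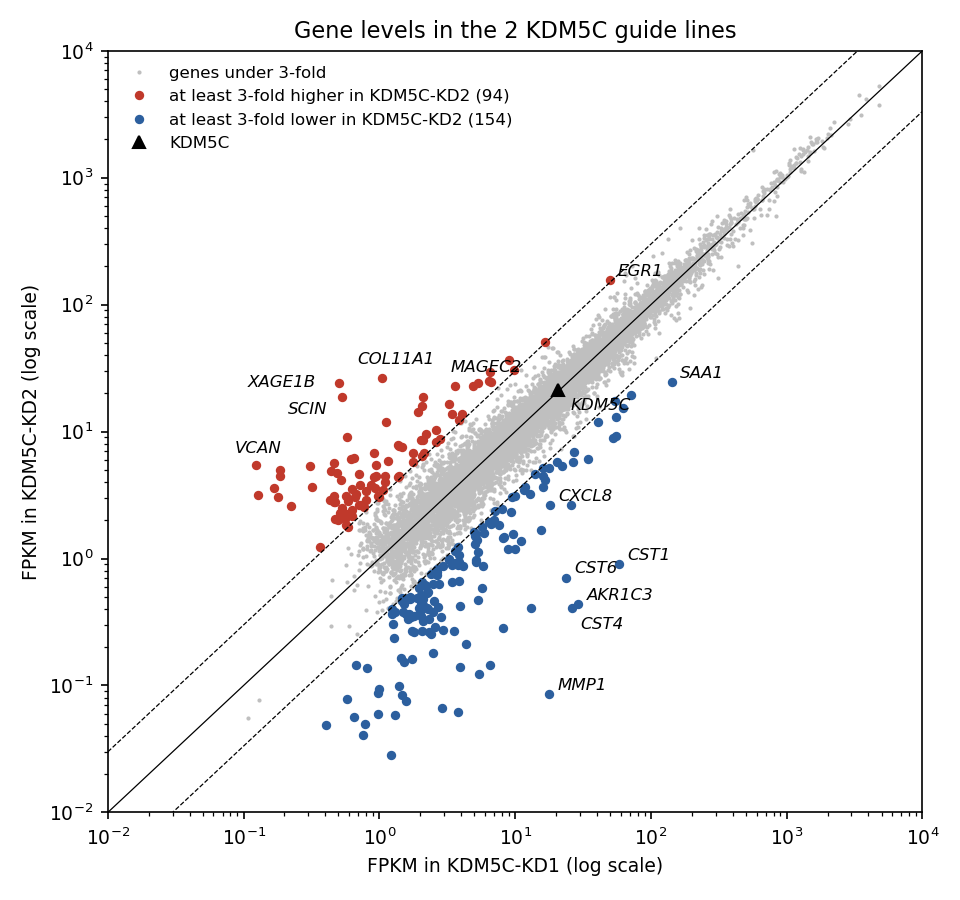
FPKM of 11703 genes above 0 in both lines, with KDM5C-KD1 on the x axis and KDM5C-KD2 on the y axis, both on log scales. The solid line marks equal levels and the dashed lines a 3-fold difference. KDM5C (triangle, 20.6 and 21.4 FPKM) lies on the line of equal levels, the 94 genes higher in KDM5C-KD2 are red and the 154 lower ones blue, and MMP1, AKR1C3, CST4 and CST1 lie farthest below.

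The promoters of 3 chemokine genes that were lower in KDM5C-KD2 and of a cancer-testis antigen gene that was higher are shown first, because these chemokine genes lie in 1 stretch of chromosome 4 and the cancer-testis antigens had the highest list median. Each line gives the 250 bases before the gene's start in RefSeq (GRCh38.p14), 5′ to 3′ on the gene's strand. In the chemokine promoters the capitals mark matches to GGANTTTCC on either strand, a sequence like the binding site of NF-kappaB, the transcription factor of inflammatory signalling. In the MAGEA3 promoter they mark CG dinucleotides, the sites of DNA methylation.
CXCL8 (chr4:73740319-73740568, + strand): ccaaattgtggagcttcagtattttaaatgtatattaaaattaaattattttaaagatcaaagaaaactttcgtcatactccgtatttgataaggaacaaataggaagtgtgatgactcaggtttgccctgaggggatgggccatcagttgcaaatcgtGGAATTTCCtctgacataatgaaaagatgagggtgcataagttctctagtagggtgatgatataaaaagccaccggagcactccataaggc
CXCL1 (chr4:73869143-73869392, + strand): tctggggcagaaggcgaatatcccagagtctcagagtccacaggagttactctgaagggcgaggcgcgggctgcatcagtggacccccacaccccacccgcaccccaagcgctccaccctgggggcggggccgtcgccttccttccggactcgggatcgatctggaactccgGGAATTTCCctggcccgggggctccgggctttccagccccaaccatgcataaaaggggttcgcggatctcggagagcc
CXCL3 (chr4:74038690-74038939, - strand): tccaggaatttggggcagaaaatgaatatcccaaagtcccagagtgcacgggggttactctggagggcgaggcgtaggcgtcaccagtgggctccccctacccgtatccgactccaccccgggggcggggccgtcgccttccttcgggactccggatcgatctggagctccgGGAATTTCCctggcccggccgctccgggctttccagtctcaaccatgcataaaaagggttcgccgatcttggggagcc
MAGEA3 (chrX:152698544-152698793, + strand): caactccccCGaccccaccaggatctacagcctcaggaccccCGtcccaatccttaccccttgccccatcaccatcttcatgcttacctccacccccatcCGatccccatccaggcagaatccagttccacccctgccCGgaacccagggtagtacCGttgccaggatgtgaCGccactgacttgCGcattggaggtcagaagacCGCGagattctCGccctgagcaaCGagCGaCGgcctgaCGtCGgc

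Each chemokine promoter held 1 match, starting 91 bases before the gene's start in CXCL8 and 78 bases before it in CXCL1 and in CXCL3. The promoters of CXCL1 and CXCL3 were identical at 162 of 250 positions without gaps. Of 9 inflammatory genes lower in KDM5C-KD2 (the chemokine, interleukin and NF-kappaB lists below), 7 had a promoter in the RefSeq table, and 4 of these held the sequence: CXCL1, CXCL3, CXCL8 and IL32, the last with 2 matches. BIRC3, CSF2 and IL1B held none in this window. No share was computed for genes of these lists that were not lower, so that whether the sequence goes with the lower level was not tested. Over all lower genes, 6 of 96 promoters (6.25%) held it, the other 2 being those of CCDC3 and TLR2, a receptor for bacterial lipoproteins. None of 58 promoters of the higher genes did, against 133 of 9155 promoters of the genes analysed (1.45%) and 401 of 27195 promoters in all (1.47%). The AP-1 sequence TGANTCA was in 7 of 96 promoters of lower genes (7.29%), 2 of 58 of higher genes (3.45%), 339 of 9155 of the genes analysed (3.70%) and 1782 of 27195 in all (6.55%). TATAAA was in 7 of 96 (7.29%), 8 of 58 (13.8%), 462 of 9155 (5.05%) and 3031 of 27195 (11.1%). MAGEA3 and MAGEA6 had the same 250 bases, with 15 CG dinucleotides, and the median promoter had 11 among the higher genes, 17 among the lower genes and 21 among the genes analysed. A match describes the letters and not a site that is bound.

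The number of genes that were 3-fold apart was close to that in the pair of DKD lines. At least 3-fold, 94 genes (0.801% of 11730) were higher and 154 (1.31%) lower in KDM5C-KD2 than in KDM5C-KD1. The DKD lines, which share the KDM5C guide and differ in the TRIM11 guide, had 88 genes higher (0.75%) and 151 lower (1.29%) in DKD2 than in DKD1. The TRIM11-KD lines had 33 higher (0.281%) and 122 lower (1.04%) in TRIM11-KD2 than in TRIM11-KD1. Against Control, KDM5C-KD1 had 91 genes higher (0.776%) and 67 lower (0.571%), and KDM5C-KD2 had 218 higher (1.86%) and 229 lower (1.95%). The counts against Control share the Control library. The expression filter used Control, KDM5C-KD1 and KDM5C-KD2. A gene high in a DKD or TRIM11-KD line alone could be left out, so that the pair counts are not on equal terms.

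Of the 154 lower genes, 137 were annotated as protein-coding, 3 were small RNAs and 7 were entries that join several symbols. The 94 higher genes held 76 protein-coding genes, 1 small RNA and 3 joined entries. These genes were of low level: the median of the mean FPKM was 2.70 for the lower and 2.09 for the higher genes, against 12.6 for all genes analysed, and 50 of 154 and 21 of 94 had a mean of at least 5 FPKM. Of the 20 genes listed at 0 in 1 line, 16 were small RNAs, which a poly(A)-selected library captures poorly. The others included MAGEA1 and the joined entry XAGE1B,XAGE1E at 0 in KDM5C-KD1, and the cytokine gene LTB at 0 in KDM5C-KD2. Just inside the 3-fold limit stood ARHGAP28 (3.01-fold higher) and COL27A1 (3.01-fold lower). Just outside it stood LOC645638 (2.98-fold higher) and LHX4 (2.99-fold lower).

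Set against Control, KDM5C-KD2 stood farther from it than KDM5C-KD1 for most of these genes. Of the 154 lower genes, 146 were at least 1.5-fold below Control in KDM5C-KD2 and 48 were so in KDM5C-KD1, while 79 were within 1.5-fold of Control in KDM5C-KD1 and 27 were above it. Of the 94 higher genes, 89 were at least 1.5-fold above Control in KDM5C-KD2 and 44 were so in KDM5C-KD1, with 28 within 1.5-fold and 22 below. Over all 11730 genes, KDM5C-KD1 was that far above Control for 6.81% and below for 5.03%, and KDM5C-KD2 for 10.5% and 11.3%. The guide lines lay on opposite sides of Control for 19 of the lower genes, above in KDM5C-KD1 and below in KDM5C-KD2, and for 17 of the higher genes, in the reverse order. The choice of genes 3-fold apart favours opposite sides, and no share over all genes was computed.

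The cystatins, secreted inhibitors of cysteine proteases, had the lowest list median between the guide lines, -3.08 over 7 genes, and 5 of the 7 were at least 3-fold lower in KDM5C-KD2. CST1 was at 1379.9 FPKM in Control, 58.5 in KDM5C-KD1 and 0.907 in KDM5C-KD2, a 64.6-fold difference between the guide lines. CST4 was at 416, 26.4 and 0.406 FPKM, a 65.0-fold difference, and CST2 at 49.9, 5.72 and 0.587 FPKM, a 9.74-fold difference. These 3 genes were below Control in both guide lines, and far more so in KDM5C-KD2. CST1, CST2 and CST4 are close copies, and reads could be shared among them. CST6 and CST7 behaved otherwise. CST6, cystatin E/M, was at 0.520 FPKM in Control, 23.6 in KDM5C-KD1 and 0.709 in KDM5C-KD2, so that KDM5C-KD1 alone of these 3 lines was high. CST7, an inhibitor of cathepsins in immune cells, was at 4.66, 8.84 and 1.19 FPKM. The 2 cystatins that did not reach 3-fold were CST3, at 622, 314 and 163 FPKM, and the intracellular CSTB, at 159.8, 157 and 161 FPKM.

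The AKR1C enzymes, aldo-keto reductases that act on steroids and prostaglandins, were near 0 in KDM5C-KD2. AKR1C3 was at 29.5 FPKM in Control, 29.2 in KDM5C-KD1 and 0.435 in KDM5C-KD2, a 67.1-fold difference. AKR1C1 was at 11.5, 5.42 and 0.123 FPKM and AKR1C2 at 1.96, 2.87 and 0.0659 FPKM, differences of 44.01-fold and 43.6-fold. The 3 are related in sequence, and some reads may be shared among them. The other 19 genes of the list of aldo-keto reductases and NRF2 targets (22 analysed) stayed under 3-fold, and the list median was -0.29. CYP1B1, a cytochrome P450 that oxidises estrogens and xenobiotics, was at 43.9, 52.7 and 8.86 FPKM.

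Of 10 chemokine genes, 7 were below their KDM5C-KD1 level in KDM5C-KD2 and 3 were above it, and 3 were at least 3-fold lower and none 3-fold higher. The list median was -1.35, against -0.51 for genes with a mean of at least 5 FPKM and -0.77 with 1 FPKM added in place of 0.1. CXCL8, which attracts neutrophils, was at 32.8 FPKM in Control, 18.0 in KDM5C-KD1 and 2.65 in KDM5C-KD2. CXCL1, a ligand of the same receptor, was at 4.82, 1.56 and 0.0749 FPKM, and CXCL3 at 1.56, 1.53 and 0.152 FPKM. KDM5C-KD2 was the low line for all 3, by 6.77-fold, 20.8-fold and 10.04-fold against KDM5C-KD1. With 1 FPKM added to each value, CXCL1 and CXCL3 fell under 3-fold and CXCL8 did not. CXCL2, at 18.4, 16.3 and 6.44 FPKM, was 2.53-fold lower. CCL2, which attracts monocytes, was listed at 0 in KDM5C-KD2, with 2.82 FPKM in Control and 0.684 in KDM5C-KD1.

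Among 13 interleukins and colony stimulating factors, 4 were at least 3-fold lower, none was higher and the median was -0.22. IL32, a proinflammatory cytokine, was at 43.9 FPKM in Control, 70.9 in KDM5C-KD1 and 19.3 in KDM5C-KD2. CSF2 and CSF3, the growth factors of granulocytes and macrophages, were at 27.2, 15.9 and 4.46 FPKM and at 2.45, 0.656 and 0.0569 FPKM. IL1B, the interleukin-1 beta precursor, was at 7.29, 9.44 and 3.08 FPKM. For IL32 and IL1B, KDM5C-KD1 was above Control and KDM5C-KD2 below it, while for CSF2 and CSF3 both were below.

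Of 20 genes of the NF-kappaB pathway, 15 were below their KDM5C-KD1 level in KDM5C-KD2, with a median of -0.45, and 2 reached 3-fold. BIRC3, an inhibitor of apoptosis and a target of the pathway, was at 11.3, 10.99 and 1.37 FPKM. RELB, a subunit of the factor, was at 18.1, 20.5 and 5.74 FPKM. TNFRSF11B, the decoy receptor osteoprotegerin, was the 1 of 23 cytokine receptor genes to reach 3-fold, at 6.76, 4.11 and 0.880 FPKM. SAA1, the acute phase protein serum amyloid A, was at 173 FPKM in Control, 142 in KDM5C-KD1 and 24.4 in KDM5C-KD2. PTX3, a soluble pattern recognition protein, was at 59.4, 54.2 and 17.3 FPKM. SAA1 has a near-identical copy in SAA2, with which reads can be shared.

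Of 6 MHC class II presentation genes, 4 were below their KDM5C-KD1 level in KDM5C-KD2, 2 of them at least 3-fold, and no class I gene was 3-fold apart. HLA-DRA, the alpha chain of HLA-DR, was at 2.80, 1.75 and 0.268 FPKM. HLA-DPA1, the alpha chain of HLA-DP, was at 3.91, 5.31 and 1.13 FPKM. CD74, the invariant chain that chaperones class II molecules, was just under the limit at 139, 109.9 and 38.3 FPKM, a 2.87-fold difference. The list median was -1.39, and it was 0.17 when genes with a mean of at least 5 FPKM alone were kept. Over 18 class I presentation genes the median was -0.18, and the log2 ratios lay between -1.04 and 0.21. Over 41 interferon-stimulated genes it was -0.03, with IFI6, a mitochondrial protein induced by interferon, as the 1 gene past 3-fold, at 17.2, 16.6 and 51.2 FPKM.

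Proteases, inhibitors and matrix genes went both ways. MMP1, a collagenase, had the largest difference among the named genes, 208-fold, from 14.9 FPKM in Control and 17.8 in KDM5C-KD1 to 0.0853 in KDM5C-KD2. ADAMTS1, a protease of proteoglycans, was at 14.5, 2.17 and 0.620 FPKM, and TIMP4, a metalloproteinase inhibitor, was higher at 0.816, 0.568 and 1.82 FPKM. In the plasminogen and serpin list PLAT, the tissue plasminogen activator, was at 176, 62.3 and 15.4 FPKM. SERPINA1, the elastase inhibitor alpha-1-antitrypsin, was at 3.60, 6.48 and 0.145 FPKM. KDM5C-KD2 was the low line for both, by 4.05-fold and 44.6-fold against KDM5C-KD1. SLPI, another elastase inhibitor, was higher at 1.34, 0.535 and 2.38 FPKM.

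Among 17 collagens, COL11A1 was 25.04-fold higher in KDM5C-KD2 and 3 genes were lower. COL11A1, a fibrillar collagen chain, was at 6.26 FPKM in Control, 1.05 in KDM5C-KD1 and 26.3 in KDM5C-KD2, which made it the 1 gene, among those above 0 in the 3 lines, that lay at least 3-fold below Control in one guide line and at least 3-fold above it in the other. COL1A2 was at 0.469, 2.50 and 0.181 FPKM, COL6A3 at 3.77, 2.11 and 0.476, and COL27A1 at 1.67, 1.46 and 0.486. Of 33 matrix glycoproteins, 2 were higher and 2 lower. VCAN, the proteoglycan versican, was at 0.0932, 0.123 and 5.44 FPKM, and LAMA1, a laminin chain, was at 0.219, 0.590 and 2.84 FPKM. IGFBP3, which binds insulin-like growth factors, was at 14.4, 15.9 and 3.67 FPKM, and EFEMP2, an elastic fibre protein, at 2.80, 5.16 and 0.933 FPKM. CEMIP, which takes part in hyaluronan breakdown, was at 54.2, 15.5 and 1.68 FPKM.

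Adhesion and lineage genes differed as single genes rather than as lists. CDH2, N-cadherin, was at 0.727, 0.721 and 3.82 FPKM, and CDH3, P-cadherin, at 0.600, 0.509 and 2.30 FPKM. CD24, a surface glycoprotein used to sort breast cancer cells, was at 8.13, 8.13 and 0.282 FPKM. GPNMB, a transmembrane glycoprotein, was higher at 0.714, 1.16 and 5.83 FPKM, and CNN1, the smooth muscle protein calponin, at 1.11, 0.470 and 2.78 FPKM. The medians over 19 cadherins and adhesion molecules, 33 epithelial genes and 25 mesenchymal genes were 0.14, 0.07 and -0.17. The epithelial genes past 3-fold were EHF, an ETS transcription factor, at 25.5, 12.8 and 3.20 FPKM, and KRT17, a basal keratin, at 8.16, 2.64 and 0.740 FPKM. Both were below Control in both guide lines, and lowest in KDM5C-KD2.

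Signalling, neuronal and receptor genes gave further single genes. LEF1, a transcription factor of the WNT pathway, was at 3.49, 0.972 and 0.0877 FPKM in Control, KDM5C-KD1 and KDM5C-KD2. NOG, the BMP antagonist noggin, was at 17.8, 27.1 and 6.87 FPKM, and TP53I11, a p53-inducible gene, at 4.65, 10.02 and 1.18 FPKM. For NOG and TP53I11 KDM5C-KD1 was above and KDM5C-KD2 below Control. SLIT2, an axon guidance ligand, was at 2.57, 2.48 and 0.636 FPKM, and NRP2, a semaphorin receptor, at 6.05, 7.57 and 1.83 FPKM. OXTR, the oxytocin receptor, was at 10.1, 25.7 and 2.62 FPKM, and GPR110, an adhesion G protein-coupled receptor, at 21.3, 13.1 and 0.408 FPKM. Of 19 neuronal and synaptic genes, 4 were lower and 1 higher. CALB2, the calcium buffer calretinin, was at 12.9, 3.80 and 0.0617 FPKM. STMN3, a microtubule regulator, was at 10.9, 22.1 and 5.35 FPKM, and SHANK2, a synaptic scaffold, at 1.88, 1.57 and 0.480. GABRA3, a GABA receptor subunit, was higher at 0.308, 0.569 and 3.12 FPKM. Among immediate early genes EGR1 was higher, at 86.6, 49.6 and 157 FPKM, and KLF2 lower, at 13.2, 17.7 and 5.21 FPKM, with a median of 0.20 over 31 genes.

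**Figure D2:**
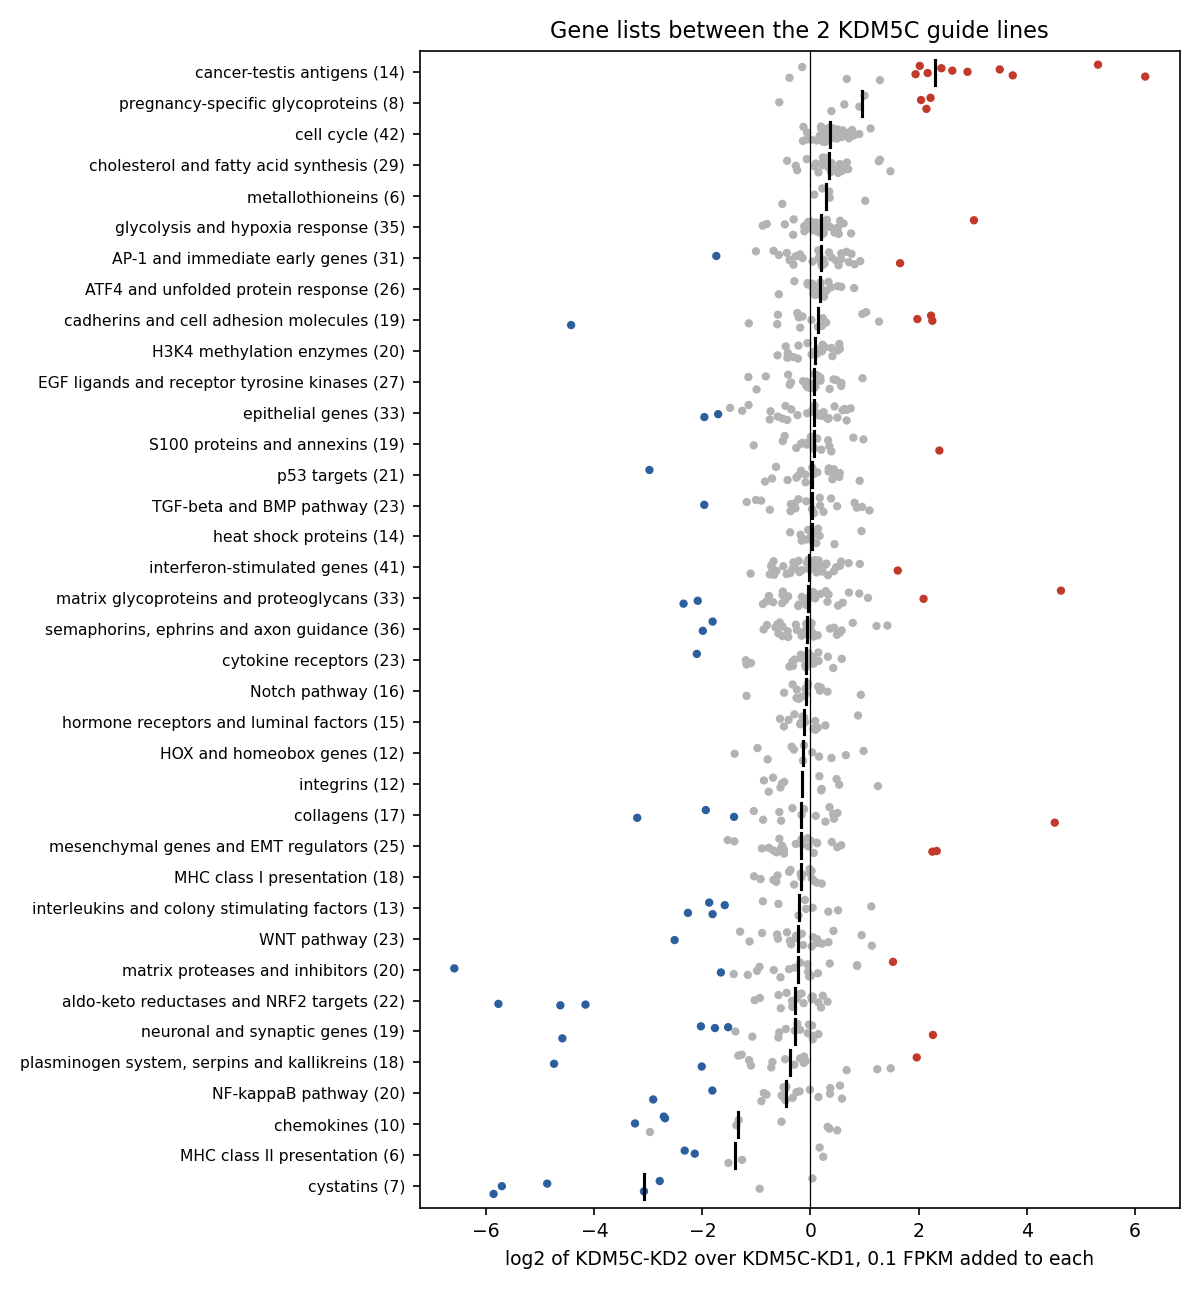
Each point is 1 gene of a list, placed by the log2 ratio of KDM5C-KD2 to KDM5C-KD1 with 0.1 FPKM added to each; the number analysed stands in brackets and the black bar is the list median. Red and blue mark genes at least 3-fold higher or lower (or listed at 0 in 1 line). The cystatins (median -3.08) lie at the bottom and the cancer-testis antigens (median 2.30) at the top, and the lists between mostly centre near 0 with a few single genes far out.

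Cancer-testis antigens, proteins normally made in the germ line and re-expressed in tumors, had the highest list median between the guide lines. Of 41 genes in the list, 14 were analysed. Of these, 9 were at least 3-fold higher, 1 was listed at 0 in KDM5C-KD1 and none was 3-fold lower, with a median of 2.30. MAGEA1, MAGEA11, MAGEC3, PAGE1 and XAGE1B passed the filter only through their level in KDM5C-KD2. The counts and the median are thus partly set by the filter. XAGE1B was at 0.252 FPKM in Control, 0.504 in KDM5C-KD1 and 24.0 in KDM5C-KD2, a 47.7-fold difference. MAGEA11 was at 0.189, 0.581 and 9.01 FPKM, and MAGEC1 at 0.774, 2.05 and 16.04 FPKM. These genes were low in Control, somewhat higher in KDM5C-KD1 and highest in KDM5C-KD2. The same order held for SSX1 (5.58, 8.94 and 36.6 FPKM), for MAGEC2 (1.33, 3.61 and 22.7 FPKM) and for MAGEA3 (3.59, 6.38 and 24.8 FPKM). It also held for MAGEA6, at 2.84, 5.33 and 24.3 FPKM, whose printed promoter window equals that of MAGEA3 and with which it can share reads. MAGEC3 and PAGE1 were listed at 0 in Control, at 0.180 and 1.38 FPKM in KDM5C-KD1 and at 3.07 and 7.81 FPKM in KDM5C-KD2. MAGEA1 was at 0.0352 FPKM in Control, was listed at 0 in KDM5C-KD1 and reached 7.22 FPKM in KDM5C-KD2. Against Control, the list median of KDM5C-KD1 was 0.93 and that of KDM5C-KD2 was 3.52.

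The pregnancy-specific glycoproteins, placental proteins of the immunoglobulin family encoded in 1 cluster of near-identical genes, had 3 of 8 genes at least 3-fold higher and a median of 0.95. PSG2 was at 1.54 FPKM in Control, 6.57 in KDM5C-KD1 and 29.4 in KDM5C-KD2. PSG8 was at 2.56, 4.86 and 23.04 FPKM, and PSG7 at 1.01, 2.01 and 8.62 FPKM. KDM5C-KD1 lay between Control and KDM5C-KD2 for all 3. PSG1, PSG4 and PSG5 stayed under 3-fold, with PSG1 at 8.96, 32.3 and 42.3 FPKM. Because the copies are so alike, reads may have been divided among them.

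Among the largest ratios outside these families was SCIN, an actin-severing protein, at 0.454 FPKM in Control, 0.529 in KDM5C-KD1 and 18.7 in KDM5C-KD2. LBP, which binds bacterial lipopolysaccharide, was at 5.05, 2.09 and 18.6 FPKM, and the olfactory receptor OR51B5 at 0.544, 1.91 and 14.3 FPKM. MYO1D, an unconventional myosin, was at 0.918, 3.25 and 16.5 FPKM, and PLCE1, a phospholipase C, at 4.19, 3.42 and 13.7 FPKM. The hexokinase-like HKDC1 was at 3.26, 6.59 and 24.5 FPKM. STC2, the secreted hormone stanniocalcin, was the 1 gene of 35 in the glycolysis and hypoxia list past 3-fold, at 0.320, 0.489 and 4.69 FPKM. ANXA10, an annexin, was at 1.70, 1.39 and 7.68 FPKM. SCIN, PLCE1 and ANXA10 were near Control in KDM5C-KD1, while OR51B5, MYO1D and HKDC1 were already above it there. MTRNR2L2, a gene that resembles the mitochondrial ribosomal RNA and can take its reads, was lower at 31.5, 40.5 and 11.9 FPKM.

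Some lists had most genes on one side without any reaching 3-fold. Of 42 cell cycle genes, 38 were above their KDM5C-KD1 level in KDM5C-KD2, with a median of 0.36 and none past 3-fold. Of 29 genes of cholesterol and fatty acid synthesis 25 were above, with a median of 0.34, and of 26 genes of the ATF4 and unfolded protein response 22 were, with a median of 0.18. Over all genes analysed 6110 of 11730 were above. Against Control, the cell cycle medians of KDM5C-KD1 and KDM5C-KD2 were 0.06 and 0.41, and the cholesterol medians -0.18 and 0.23. In 12 of 37 lists no gene was 3-fold apart. The 37 lists held 763 genes, of which 26 were higher and 42 lower by 3-fold.

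For the genes 3-fold apart, levels in the 4 lines outside the comparison were mostly closer to KDM5C-KD1. KDM5C-KD2 stood at least 3-fold above all 6 other lines for 54 genes (0.46% of 11730) and at least 3-fold below all of them for 68 (0.58%), with 0.1 FPKM added to each value. KDM5C-KD1 stood above all others for 7 genes (0.0597%), each an entry of small RNAs, and below all others for 0 genes (0%). For the remaining 5 lines the counts were at most 7 above and 32 below, the latter in DKD2. The expression filter used Control, KDM5C-KD1 and KDM5C-KD2, so that a gene high in a TRIM11-KD or DKD line alone could be left out. The counts above all others are thus partly set by the filter. Of the 94 higher genes, KDM5C-KD2 stood alone above for 52, and of the 154 lower genes it stood alone below for 63. Nearness was taken only for the genes chosen by the ratio of KDM5C-KD2 to KDM5C-KD1, and no share over all genes was computed. Some of the higher genes passed the filter through KDM5C-KD2 alone, so that nearness is partly set by the choice of genes. The 2 DKD lines carried the KDM5C guide of KDM5C-KD2. Both of them were nearer to KDM5C-KD1 than to KDM5C-KD2 for 72 of 94 higher (76.6%) and 117 of 154 lower genes (76.0%). Both were nearer to KDM5C-KD2 for 2 and 0 genes. The TRIM11-KD lines, which lack the guide, were both nearer to KDM5C-KD1 for 76 of 94 (80.9%) and 131 of 154 genes (85.1%).

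**Figure D3:**
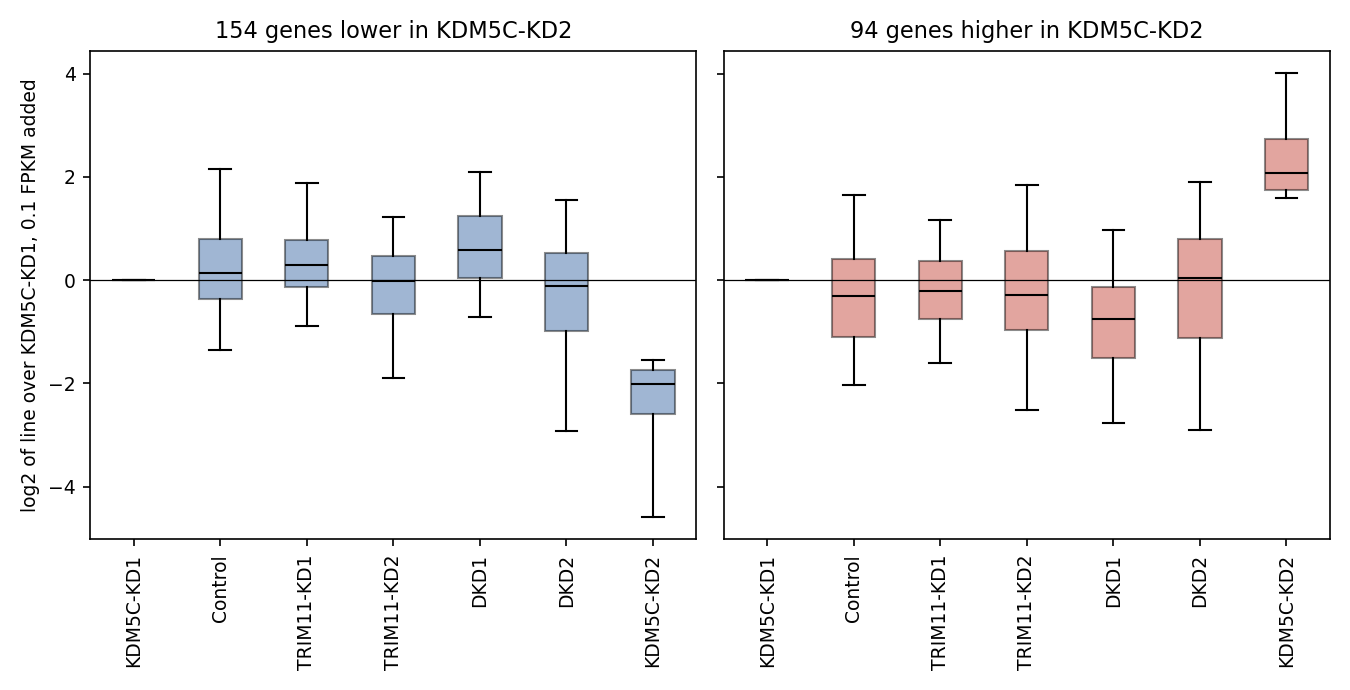
Boxes show the log2 ratio of each line to KDM5C-KD1 (0.1 FPKM added) over the 154 lower genes (left) and the 94 higher genes (right); the line in the box is the median, the box spans the quartiles and the whiskers the 5th to 95th percentile. The KDM5C-KD2 box, which chose the genes, has medians of -2.02 and 2.07, while the DKD lines with the same KDM5C guide have medians of 0.57 and -0.11 on the left and -0.76 and 0.05 on the right.

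AKR1C3 was at 78.9 and 89.4 FPKM in TRIM11-KD1 and TRIM11-KD2 and at 77.6 and 85.6 in DKD1 and DKD2, against 0.435 in KDM5C-KD2, and SERPINA1 was at 12.9, 13.05, 19.6 and 16.7 against 0.145. HLA-DRA was at 9.05 and 5.68 FPKM in the DKD lines against 0.268 in KDM5C-KD2, and IGFBP3 at 29.0 and 24.6 against 3.67. SCIN was at 0.130 and 0.0347 FPKM in the DKD lines against 18.7 in KDM5C-KD2, VCAN at 0.0773 and 0.398 against 5.44, and CDH2 at 0.859 and 0.673 against 3.82. The low levels of AKR1C3, SERPINA1 and IGFBP3 and the high levels of SCIN, VCAN and CDH2 were thus seen in 1 of the 3 lines that carried KDM5C guide 2. In the chemokine list KDM5C-KD2 stood below all other lines for 4 of 10 genes (CCL2, CXCL1, CXCL3 and CXCL8), and in the cancer-testis list above all others for 8 of 14. Of these 8, MAGEA1, MAGEA11, MAGEC3 and PAGE1 passed the filter only through KDM5C-KD2, so that the cancer-testis count is partly set by the filter.

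Other genes were shared with further lines. CST1 was at 37.01 FPKM in TRIM11-KD2 and 1.49 in DKD2, against 575 in TRIM11-KD1 and 77.7 in DKD1. MMP1 was at 0.690 FPKM in TRIM11-KD2 and 0.797 in DKD2, against 43.2 in TRIM11-KD1 and 34.1 in DKD1. For both genes the line numbered 2 was the low one in each of the 3 pairs of lines. XAGE1B was high in TRIM11-KD2 (27.7 FPKM) and low in both DKD lines (0.429 and 0.247 FPKM), and MAGEC2 was high in TRIM11-KD2 and DKD2 (22.6 and 52.4 FPKM). MAGEA6 was below Control in TRIM11-KD2, DKD1 and DKD2, at 0.203, 0.123 and 0.141 FPKM.

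**Figure D4:**
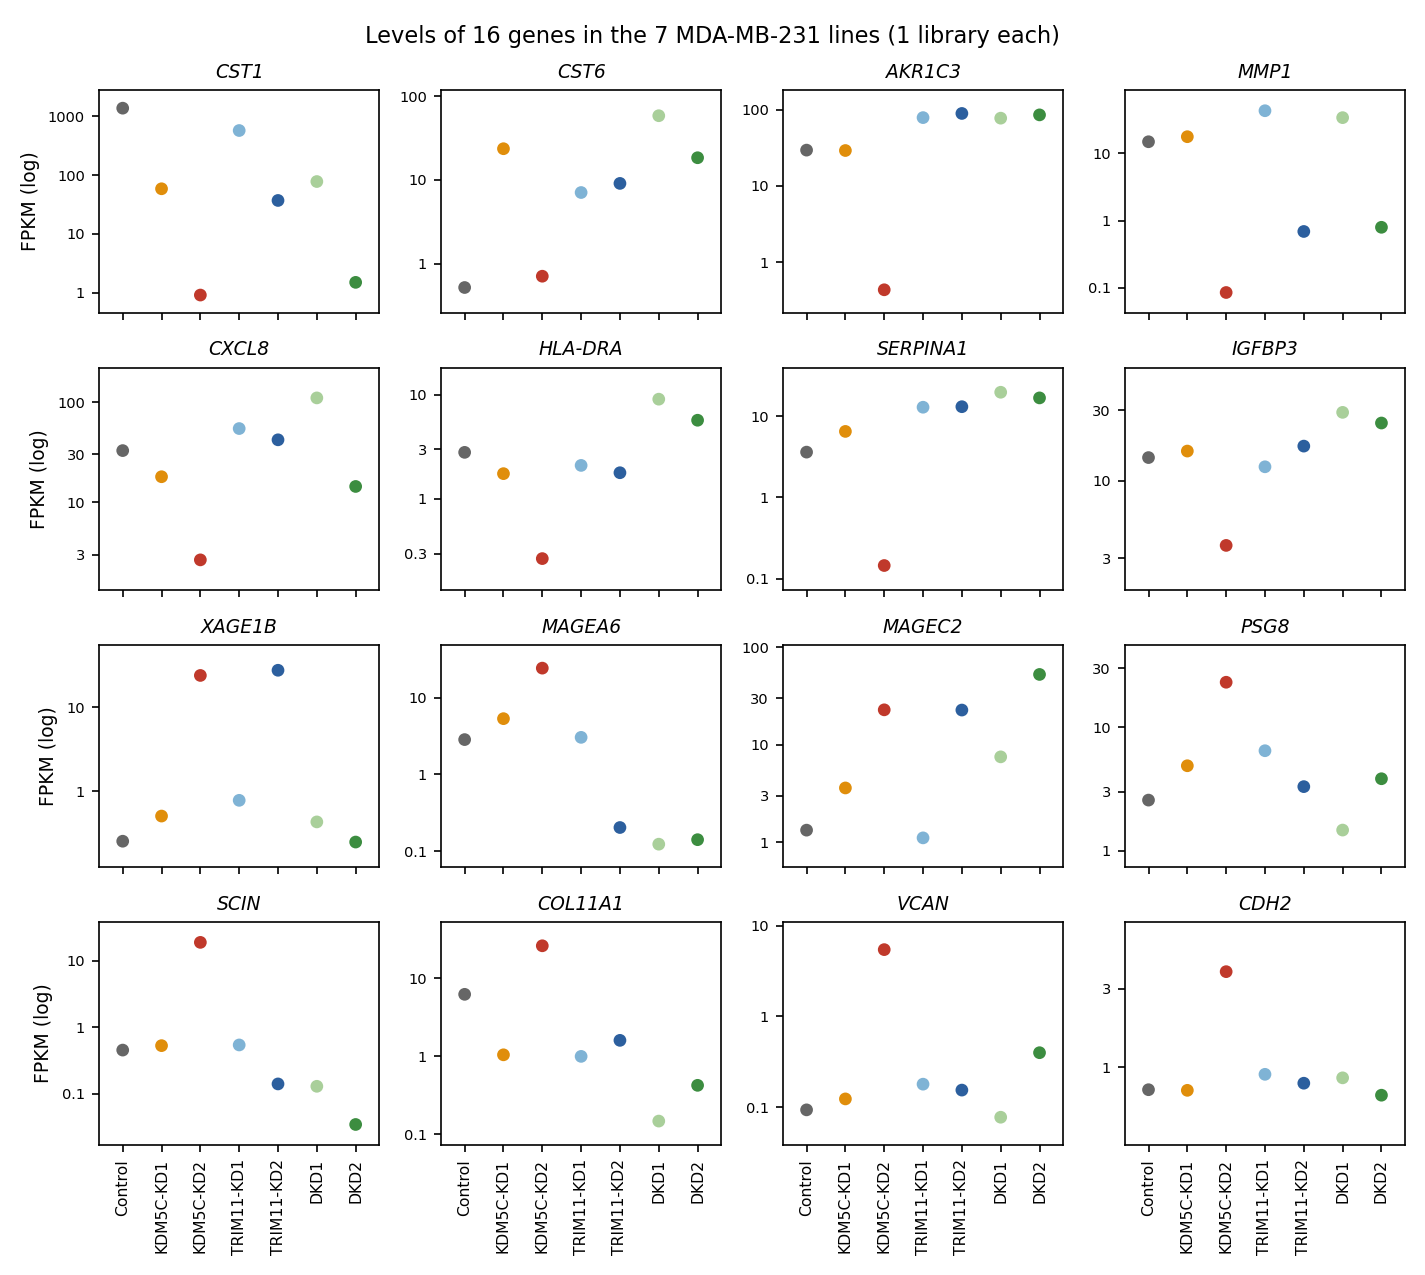
FPKM of 16 genes in the 7 lines, 1 library each, on log axes that differ between panels. KDM5C-KD2 (red) is the lowest line for AKR1C3, MMP1, CXCL8, HLA-DRA, SERPINA1 and IGFBP3 and the highest for MAGEA6, PSG8, SCIN, COL11A1, VCAN and CDH2, while XAGE1B and MAGEC2 are also high in TRIM11-KD2 (27.7 and 22.6 FPKM).

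The pairs DKD2 against DKD1 and TRIM11-KD2 against TRIM11-KD1 share no library with the KDM5C pair. DKD2 was at least 1.5-fold above DKD1 for 52 of the 94 higher genes and at least 1.5-fold below it for 81 of the 154 lower genes, against 5.49% and 7.61% of all genes. In the opposite direction lay 12 and 13 genes. TRIM11-KD2 was at least 1.5-fold above TRIM11-KD1 for 23 of 94 and below it for 60 of 154, against 4.34% and 6.09% of all genes, with 26 and 22 in the opposite direction. For both pairs, the shares in both directions were thus above those of all genes. In the DKD pair the opposite direction held 12.8% of the higher and 8.44% of the lower genes, against 7.61% and 5.49% of all genes.

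Each DKD line can also be set against the TRIM11-KD line with the same TRIM11 guide, from which it differs by KDM5C guide 2. DKD1 was at least 1.5-fold above TRIM11-KD1 for 14 of the 94 higher genes and below it for 51, and it was below for 24 of the 154 lower genes and above for 52. Over all genes, 6.16% were above and 6.73% below. DKD2 was at least 1.5-fold above TRIM11-KD2 for 26 and below it for 26 of the 94, and below for 40 and above for 22 of the 154, against 3.5% above and 4.19% below for all genes. The median log2 ratio of DKD1 to TRIM11-KD1 was -0.69 over the higher and 0.37 over the lower genes, and that of DKD2 to TRIM11-KD2 was 0.15 and -0.14.

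On the genome (hg19), 224 of the 248 genes could be placed by name. The X chromosome had 13 of its 365 analysed genes higher in KDM5C-KD2 (3.56%), against 0.757% of all placed genes, and 9 of the 13 were the cancer-testis antigens above. Of the 13, MAGEA11, MAGEC3, PAGE1, XAGE1B, TENM1 and GABRA3 passed the filter only through KDM5C-KD2. The X chromosome share is thus partly set by the filter. Neighbouring genes, less than 500 kb apart and in the same direction, made up 18 of 84 placed higher genes and 27 of 140 placed lower genes. No such share was computed for other genes, so that it is unknown whether these shares are unusual. Some runs held many genes under 3-fold, such as CSF3 and TNS4 (2 of 15 analysed genes) and EFEMP2 and CST6 (2 of 10). The cystatins CST4, CST1 and CST2 were the 3 analysed genes of a stretch of chromosome 20 (chr20:23666277-23807366). AKR1C1, AKR1C2 and AKR1C3 were the 3 of chr10:5005445-5149878, and CXCL8, CXCL1 and CXCL3 the 3 of chr4:74606236-74904524. Each stretch runs from its first to its last member, so that analysed neighbours outside it, which may not have reached 3-fold, were not counted. Higher in KDM5C-KD2 were MAGEC3, MAGEC1 and MAGEC2 (chrX:140926102-141293076, 3 of 3 analysed genes), GABRA3, MAGEA6 and MAGEA3 (chrX:151334706-151938240, 3 of 4) and PSG8, PSG7, PSG2 and CD177 (chr19:43256838-43867324, 4 of 10). The neighbours MYO1D and TMEM98 on chromosome 17 and OR51B4 and OR51B5 on chromosome 11 were also higher.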

How the data were processed

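RNA was sequenced from 7 human lines, 1 library each, with poly(A) selection and a kit that does not keep the strand, so that a gene and its antisense partner cannot be told apart. The authors aligned reads to hg19 with HISAT2 (2.1.0) and deposited FPKM values per gene from Cufflinks. The submitters' processing notes also name Bowtie 0.12.2. From the 26006 rows, 27 whose symbols had turned into dates were left out, and the row with the highest mean over the 3 lines was kept for each symbol, which left 24523 symbols. Genes with a mean of at least 1 FPKM over Control, KDM5C-KD1 and KDM5C-KD2 were analysed. Folds are plain FPKM ratios; list medians, comparisons with more than 3 lines and the 1.5-fold counts in other pairs used log2(FPKM + 0.1). No test was made, because there was 1 line a side. How often the fold rule picks unchanged genes, in particular those of low FPKM, was not tested. Depth could not be assessed from FPKM.

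The genes named in the text were KDM5C and TRIM11, list members at least 3-fold apart, the 15 largest and 15 smallest ratios at a mean of at least 5 FPKM, the 10 highest means among genes 3-fold apart (ribosomal protein genes, small RNAs, joined entries and LOC or LINC names left out), and genes at least 3-fold on opposite sides of Control. Others are named beside them for context, and these were chosen after their values were seen. The members, lists and comparisons were chosen with earlier results of these data known. Positions came from GENCODE v44 on hg19, which placed 11092 of 11730 genes (94.6%), and promoters from RefSeq (GRCh38.p14), found for 58 higher and 96 lower genes. Alternatives were pseudocounts, filters, folds, scaling and the summing of rows. Analyses used Python 3.11.15, pandas 2.3.3 and matplotlib 3.10.9. The mouse tumor table was not used. Some genes that the rule names are not reported here.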

Additional observations from a re-analysis of the deposited data

Results flagged for a closer look

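COL11A1, which encodes a chain of fibrillar type XI collagen, moved in opposite directions against Control in the lines made with different KDM5C guides. The log2 ratio to Control was -2.58 for KDM5C-KD1 and 2.07 for KDM5C-KD2, 1 line each, and the difference was not tested. In the 4 lines that the comparison did not use it was at 1.001 FPKM in TRIM11-KD1, 1.61 in TRIM11-KD2, 0.148 in DKD1 and 0.426 in DKD2. All were below the 6.26 FPKM of Control. Both DKD lines carried the KDM5C guide of KDM5C-KD2.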

How the results depend on the processing

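The counts depend on how low values are treated and on the fold. Between the KDM5C guide lines, 94 genes were higher and 154 lower in KDM5C-KD2. With 1 FPKM added there were 46 and 66, with a mean of at least 0.5 FPKM 142 and 234, with at least 5 FPKM 21 and 50, at 2-fold 238 and 371, and at 4-fold 61 and 98. Of alternatives chosen after seeing the data, keeping genes with the higher line at 1 FPKM or more gave 145 higher genes, with the lower count within 1.5 times. Adding 0.1 FPKM, the mean over the KDM5C-KD lines only, both scalings, summed rows and leaving out small RNAs and joined entries kept both counts within 1.5 times.

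With 1 FPKM added, KDM5C-KD1 against Control had 33 higher and 32 lower genes, and KDM5C-KD2 129 and 125. With a mean of at least 5 FPKM, TRIM11-KD2 against TRIM11-KD1 had 5 and 35, DKD2 against DKD1 22 and 46, DKD1 against TRIM11-KD1 8 and 36, and DKD2 against TRIM11-KD2 3 and 25. KDM5C-KD2 stood above all 6 other lines for 29 genes with 1 FPKM added and 14 at 5 FPKM, and below them for 19 and 24, alternatives chosen after seeing the data.

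The MHC class II median, -1.39, became 0.17 at a mean of at least 5 FPKM, where fewer genes are left. No other list median of at least 0.1 in size changed sign. Of the 83 named genes, 24 changed side of the 3-fold limit with 1 FPKM added, 3 with 0.1 FPKM added, and 0 under scaling or summed rows. No replicate could be left out and no paired analysis was possible because each line had 1 library.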

Other observations

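Medians by chromosome between the guide lines were small. The lowest median log2 ratio of KDM5C-KD2 to KDM5C-KD1 was -0.27 over 159 genes of chromosome 18, and the highest was 0.20 over 439 genes of chromosome 10, against 0.02 over all placed genes. On chromosome 18 the median of DKD2 against DKD1 was -0.30 and that of TRIM11-KD2 against TRIM11-KD1 -0.16.

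A few genes outside the lists, chosen after their values were seen, were also apart from all other lines in KDM5C-KD2. TENM1, a teneurin of neuronal contacts, was at 0.206, 0.186 and 4.98 FPKM in Control, KDM5C-KD1 and KDM5C-KD2, and RELN, the secreted glycoprotein reelin, was at 0.543, 0.467 and 2.79 FPKM. EDN2, the vasoconstrictor endothelin 2, was at 6.57, 3.94 and 0.139 FPKM, and CXADR, a tight junction protein that serves as a virus receptor, at 1.69, 2.32 and 0.262 FPKM. In the other 4 lines TENM1 was between 0.0502 and 0.207 FPKM and EDN2 between 5.75 and 10.4 FPKM.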
